A study of Mus musculus with 4 samples.

Results

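*Lgr5*, *Olfm4*, *Ascl2*, *Smoc2*, *Axin2*, *Sox9*, *Prom1* and *Ephb2* are genes known to mark stem and progenitor cells at the base of intestinal crypts. They were taken by symbol from the deposited table of 25239 genes, and all 8 have a row. Their RNA was measured here in 4 RNA-seq libraries of sorted NKT cells, T cells that recognise lipids presented by CD1d, so the values describe RNA of crypt genes in libraries labelled as T cells and not in sorted crypts. The genes were not evenly present. *Olfm4* and *Axin2* had over 3 counts in 4 of 4 libraries, whereas *Smoc2*, *Sox9* and *Ephb2* had between 183 and 404 counts in replicates 2 and 4 and between 0 and 2 counts in replicates 1 and 3.

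The study asks how NKT cells act on the intestinal epithelium, and these libraries hold NKT cells from the small intestinal lamina propria (SI-LP). All 4 come from wild-type C57BL/6Jax mice with no immune stimulus named, and the study used males and females 7 to 10 weeks old. Before tissues were taken, the mice received an anti-ARTC2 nanobody, which protects T cells from death during isolation. The cells were sorted as live TCRβ+ cells that bind the CD1d tetramer loaded with PBS-57 and lack B220, CD11b, CD11c and CD8, a gate that names no epithelial marker. Replicates 3 and 4 belong to a first experiment and replicates 1 and 2 to a second, and no condition differs between them. The labels do not say whether each library is 1 mouse or a pool, so p-values measure only the spread between these libraries.

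In the small intestine, WNT and R-spondin signals keep stem cells dividing at the crypt base, where they sit between Paneth cells. LGR5 binds R-spondins and thereby raises WNT signalling, β-catenin with TCF factors then switches on targets such as *Ascl2* and *Axin2*, and daughter cells that leave the base lose these signals. Most of the 8 genes are not specific to stem cells. *Sox9* is also made by Paneth cells, *Ephb2* by progenitors above the base, and *Axin2* by many cell types that receive a WNT signal.

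Replicates 1, 2, 3 and 4 held 7233071, 8732858, 5487147 and 3882803 counts on genes. A level of 3 counts, used as the limit that 0 counts allow in a library, equals 0.417, 0.287, 0.672 and 0.750 CPM in the same order. CPM here means counts per library size after that size was multiplied by the TMM factor of edgeR. The T cell markers (led by *Cd3e*, *Cd3g* and *Cd2*) took 0.254%, 0.118%, 0.284% and 0.133% of the counts, with none at 0. The libraries stood apart in their epithelial RNA. The 15 pan-epithelial markers, genes such as *Krt19*, *Epcam* and *Krt8* that are shared by all intestinal epithelial cells, made up 0.0415%, 0.464%, 0.00605% and 0.371% of the total in replicates 1 to 4, a 76.7-fold range. For each of the 15, replicate 4 exceeded replicate 3, and replicate 2 exceeded replicate 1, by over 1 log2 unit. The same held for 19.0% of the 11689 genes with 10 counts or more in 2 or more libraries. Of the 15, *Cdx2*, *Phgr1* and *Lgals4* reached 10 counts only in replicates 2 and 4 and had to be higher there. In bulk libraries such as these, fewer cells of a type and less RNA per cell cannot be told apart.

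The RefSeq promoter table on GRCm38.p6 holds windows for 5 of the 8 genes, namely *Olfm4*, *Axin2*, *Ascl2*, *Prom1* and *Ephb2*. The 250 bases before the transcription start are printed for *Olfm4* and *Axin2*, the pair of genes found in every library, and for *Ascl2*, the gene of lowest mean level, so that the extremes of the 8 can be set side by side. Sequences run 5′ to 3′ on the strand of the gene, and capitals mark the dinucleotide CG. *Olfm4* lies at chr14:80000052-80000301 on the plus strand, *Axin2* at chr11:108920099-108920348 on the plus strand and *Ascl2* at chr7:142969265-142969514 on the minus strand.
Olfm4: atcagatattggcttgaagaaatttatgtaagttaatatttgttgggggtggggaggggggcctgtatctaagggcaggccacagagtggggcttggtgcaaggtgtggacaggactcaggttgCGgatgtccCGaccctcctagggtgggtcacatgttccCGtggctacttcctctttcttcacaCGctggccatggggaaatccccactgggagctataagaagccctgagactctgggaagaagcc
Axin2: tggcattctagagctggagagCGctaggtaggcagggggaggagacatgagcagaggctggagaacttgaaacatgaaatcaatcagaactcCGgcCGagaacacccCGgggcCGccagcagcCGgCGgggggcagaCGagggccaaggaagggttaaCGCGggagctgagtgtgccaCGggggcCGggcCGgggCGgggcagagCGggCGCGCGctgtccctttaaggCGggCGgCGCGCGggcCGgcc
Ascl2: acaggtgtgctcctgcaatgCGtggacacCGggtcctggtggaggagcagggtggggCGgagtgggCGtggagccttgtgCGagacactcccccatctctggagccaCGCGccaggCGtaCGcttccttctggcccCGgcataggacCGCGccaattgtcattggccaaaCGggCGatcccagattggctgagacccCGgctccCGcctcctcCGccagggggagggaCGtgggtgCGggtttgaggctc

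The *Olfm4* window holds 4 CG dinucleotides, the *Axin2* window 24 and the *Ascl2* window 19, against a median of 6 over the 32851 windows of the table. The 250-base window of *Ephb2* holds 20, and the windows of *Prom1*, which has a pair of starts, hold 9 and 3. The letters CTTTGAT, a core of the site that TCF and LEF factors bind, were searched on both strands. They occur in 3.21% of all windows and in 0 of the 6 windows of these genes, which says only that these letters are not in these 250 bases.

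*Lgr5*, the R-spondin receptor that defines crypt base stem cells (chr10:115450314-115587780 on GRCm38, minus strand, counted over 4711 exon bases), had 8, 64, 0 and 173 counts in replicates 1, 2, 3 and 4. Its CPM was 1.11, 6.12, 0 and 43.2, with a mean of 12.6 ± 20.6 (SD, n = 4). Replicate 4 was far above the others, and replicate 3 held no count. In replicate 4 *Lgr5* was at least 64.3-fold higher than in replicate 3, computed against 3 counts, and 7.07-fold higher than in replicate 2 (95% exact interval 5.28 to 9.57, counting error only). Without replicate 4 the mean CPM was 2.41.

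Of the secreted proteins, *Olfm4* (chr14:80000302-80023141, plus strand, 2752 exon bases) encodes a glycoprotein abundant in crypt base cells. It had 410, 6813, 53 and 3477 counts in replicates 1 to 4, and 56.9, 651, 11.9 and 869 CPM, with a mean of 397 ± 429 (SD, n = 4). Replicates 2 and 4 were both above replicates 1 and 3, and its highest library was 73.2-fold above its lowest. Without replicate 4 the mean was 240.0 CPM. *Smoc2* (chr17:14279506-14404790, plus strand, 2832 exon bases) encodes a matricellular protein that binds calcium. It had 0, 202, 0 and 183 counts, and 0, 19.3, 0 and 45.7 CPM, with a mean of 16.3 ± 21.7. *Smoc2* was thus present in replicates 2 and 4 and without a count in replicates 1 and 3, and replicate 2 was at least 46.3-fold above replicate 1. Without replicate 4 its mean was 6.43 CPM.

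Of the transcription factors, *Ascl2* (chr7:142966822-142969264, minus strand, 1612 exon bases) is a basic helix-loop-helix factor that controls stem cell identity downstream of WNT. It had 0, 13, 0 and 46 counts and 0, 1.24, 0 and 11.5 CPM in replicates 1 to 4, with a mean of 3.19 ± 5.57 (SD, n = 4). Without replicate 4 the mean was 0.414 CPM, below the 3-count limit of replicate 1. *Sox9* (chr11:112782210-112787757, plus strand, 4146 exon bases), an SRY-box factor of the lower crypt and of Paneth cells, had 0, 404, 2 and 300 counts and 0, 38.6, 0.448 and 75.0 CPM, with a mean of 28.5 ± 35.9. Replicate 4 held 167 times the *Sox9* level of replicate 3 (95% exact interval 45.9 to 1388), and replicate 2 was at least 92.7-fold above replicate 1. Its mean without replicate 4 was 13.0 CPM.

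*Axin2* (chr11:108920349-108950781, plus strand, 4258 exon bases) is a scaffold of the complex that degrades β-catenin, and a WNT target that feeds back on the pathway. Its counts were 386, 507, 105 and 296 and its CPM 53.6, 48.5, 23.5 and 74.0 in replicates 1 to 4, with a mean of 49.9 ± 20.8 (SD, n = 4). Its levels were thus close in replicates 1 and 2, and the highest library was 3.15-fold above the lowest, a smaller range than in any other of the 8 genes. Its SD was also smaller than its mean, which held for no other of the 8.

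Of the membrane proteins, *Prom1* (chr5:43993622-44101736, minus strand, 4107 exon bases) encodes prominin, a glycoprotein of membrane protrusions. It had 55, 2849, 3 and 213 counts and 7.64, 272, 0.672 and 53.2 CPM, with a mean of 83.5 ± 128 (SD, n = 4). Here replicate 2 was the highest library, 5.11-fold above replicate 4 (95% exact interval 4.45 to 5.91), whereas the other 7 genes were highest in replicate 4. Without replicate 2 the mean CPM of *Prom1* was 20.5. *Ephb2* (chr4:136647541-136836012, minus strand, 10927 exon bases), a receptor tyrosine kinase that positions cells along the crypt by contact with ephrin-B ligands, had 0, 333, 1 and 330 counts. Its CPM was 0, 31.8, 0.224 and 82.5, with a mean of 28.6 ± 38.9. With 1 count in replicate 3 its ratio of replicate 4 to 3 was 368 with a 95% exact interval of 65.6 to 14588, and replicate 2 was at least 76.4-fold above replicate 1. The mean of *Ephb2* without replicate 4 was 10.7 CPM.

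**Figure D1:**
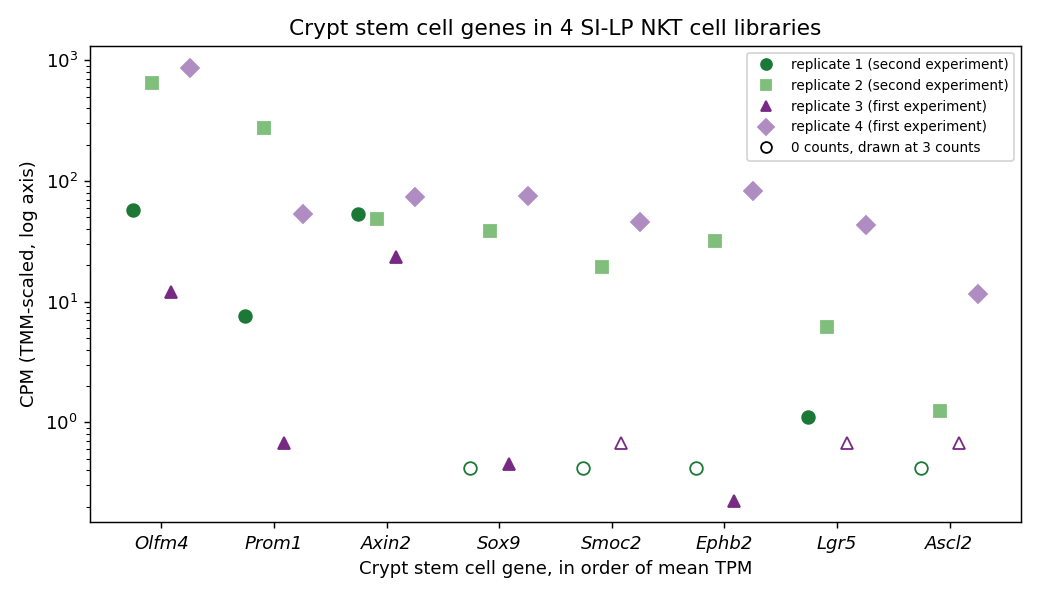
Level of each of the 8 crypt stem cell genes (x axis, in order of mean TPM) in each library, as TMM-scaled CPM on a log axis (y axis). Filled symbols are measured levels, and open symbols are libraries with 0 counts drawn at the level of 3 counts. *Axin2* spans 23.5 to 74.0 CPM, while *Smoc2* has no count in replicates 1 and 3.

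Levels were compared between genes as TPM, which divides counts by the deposited exon length. In order of mean TPM, *Olfm4* (397 ± 417, SD, n = 4) stood above *Prom1* (60.6 ± 96.8), *Axin2* (32.4 ± 13.0), *Sox9* (18.5 ± 22.2), *Smoc2* (15.3 ± 19.3), *Ephb2* (6.95 ± 8.93), *Lgr5* (6.88 ± 10.8) and *Ascl2* (5.03 ± 8.54). None of the 7 differences between neighbours in this order exceeded the larger of their SDs. *Olfm4* was nevertheless above *Prom1* in 4 of 4 libraries, and *Prom1* was above *Axin2* in 1 of 4, replicate 2. *Olfm4* was first of the 8 in replicates 1, 2 and 4 and second to *Axin2* in replicate 3. By mean TPM *Olfm4* was higher than 97.2% of the 11689 genes tested (10 counts or more in 2 or more libraries), *Axin2* than 60.0%, *Lgr5* than 19.6% and *Ascl2* than 13.9%.

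The second experiment was set against the first to measure how far the 8 genes varied between experiments, since there is 1 condition and no effect to test. *Prom1* was higher in the second by 2.38 log2 units (SE 1.98), and *Ascl2* and *Lgr5* differed by -3.15 (SE 3.04) and -2.57 (SE 2.41). *Olfm4* differed by -0.32 (SE 1.72) and *Axin2* by 0.06 (SE 0.83). Of the rest, *Smoc2* differed by -1.24 (SE 2.77), *Sox9* by -0.97 (SE 2.51) and *Ephb2* by -1.38 (SE 2.58). With the quasi-likelihood test of edgeR, adjusted by Benjamini-Hochberg over 11689 genes, 0 of the 8 passed an adjusted p of 0.05, and the smallest unadjusted p among them was 0.272. The background share called was 0%, with 2.12% of the genes at an unadjusted p under 0.05. DESeq2 called 41 genes, 0 of them among the 8. Standard errors of 1.72 to 3.04 log2 units in the 7 genes other than *Axin2* mean that differences of several-fold between experiments could not be detected. The outcome rested on single libraries. Without replicate 4, *Prom1* differed by 7.71 and *Olfm4* by 4.94 log2 units (edgeR adjusted p 0.345 and 0.481), and without replicate 2 by -1.88 and -3.02.

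The libraries of each experiment were then compared with each other. On the scale of log2 CPM with a prior count of 2, replicate 4 minus replicate 3 was 7.29 for *Ephb2*, 7.23 for *Smoc2*, 7.15 for *Lgr5*, 6.64 for *Sox9*, 6.16 for *Olfm4*, 5.77 for *Prom1*, 5.27 for *Ascl2* and 1.64 for *Axin2*. On the same scale, replicate 2 minus replicate 1 was 6.99 for *Sox9*, 6.71 for *Ephb2*, 6.00 for *Smoc2*, 5.10 for *Prom1*, 3.51 for *Olfm4*, 2.34 for *Ascl2*, 2.18 for *Lgr5* and -0.14 for *Axin2*. So 8 of the 8 genes were higher by over 1 unit in replicate 4 than 3, against 30.5% of all 11689 genes, and 7 in replicate 2 than 1, against 34.0%. In both pairs 7 were higher, against 19.0% of all genes, and 0 were lower, against 8.21%. This share is a description. *Lgr5*, *Ascl2*, *Smoc2*, *Sox9* and *Ephb2* met the filter of 10 counts only through replicates 2 and 4 and had to be higher there. Among the 8089 genes that reached 10 counts in each of the libraries, where 8.84% were higher in both pairs, *Olfm4* was higher in both and *Axin2* was not. With 1 library on each side, these differences have no replicate error.

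The median difference over the 8 genes was 6.40 for replicate 4 minus 3 and 4.30 for replicate 2 minus 1, against 0.07 and 0.13 over all genes. These medians only describe, since 5 of the 8 met the filter through replicates 2 and 4 alone and had to be higher there. With libraries at 0 set to 3 counts, the medians of the 8 were 6.14 and 4.34. The pan-epithelial markers had medians of 5.62 and 3.43, or 5.58 and 3.45 with the same limit. Scaling to the T cell markers in place of TMM moved the median of all genes to 1.46 in each pair. *Axin2* then stood at 3.05 and 1.22, and 8 of the 8 genes were higher by over 1 unit in both pairs, against 44.3% of all genes. The sign of *Axin2* in replicates 2 and 1 depended on scaling, at -0.14 with TMM, 0.12 with library size alone and 1.22 with the T cell markers.

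**Figure D2:**
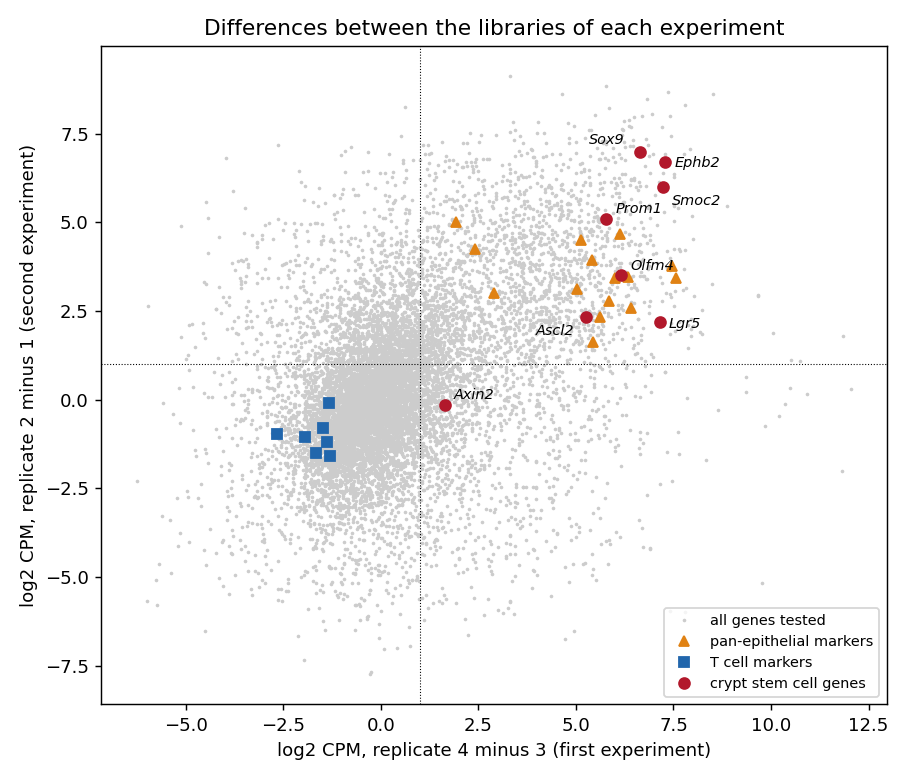
Difference in log2 CPM (prior count 2) between the libraries of each experiment, replicate 4 minus 3 on the x axis and replicate 2 minus 1 on the y axis, for all 11689 genes (grey), the 8 crypt stem cell genes (red), the 15 pan-epithelial markers (orange) and the 7 T cell markers (blue). Dotted lines mark 1 log2 unit, and *Axin2*, at 1.64 and -0.14, is the crypt gene outside the upper right area.

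Epithelial RNA moved with most of these genes and less with *Axin2*, so each was set against the pan-epithelial markers of its own library. The 8 genes together took 0.0119% (95% Wilson interval 0.0111% to 0.0127%), 0.128% (0.126% to 0.130%), 0.00299% (0.00257% to 0.00348%) and 0.129% (0.126% to 0.133%) of all counts in replicates 1 to 4, a 43.2-fold range. Per 1000 pan-epithelial counts they took 286, 276, 494 and 348, with a mean of 351 ± 100.4 (SD, n = 4) and a 1.79-fold range. Without *Olfm4* and *Axin2* the mean was 55.2, a value added after seeing the data. The 6 genes left had 63, 3865, 6 and 1245 counts in replicates 1 to 4. The pan-epithelial counts were 2999, 40502, 332 and 14407, so the narrow range of the sum does not describe these 6. *Olfm4* made up 47.7%, 60.9%, 32.3% and 69.3% of the counts on the 8 genes, and *Axin2* 44.9%, 4.53%, 64.0% and 5.90%. The part of epithelial RNA in the levels of any of the 8 was not tested beyond these ratios.

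Per 1000 pan-epithelial counts, *Olfm4* was 137, 168, 159.6 and 241 in replicates 1 to 4 (176 ± 45.2, SD, n = 4), a 1.77-fold range where its CPM ranged 73.2-fold. *Axin2* was 129, 12.5, 316 and 20.5, a 25.3-fold range where its CPM ranged 3.15-fold. Per 1000 T cell marker counts *Axin2* was 21, 49.0, 6.75 and 57.2, an 8.48-fold range, which lies between the ranges on the other scales. *Prom1* was 18.3, 70.3, 9.04 and 14.8 per 1000 pan-epithelial counts, highest in replicate 2. *Lgr5* was 2.67, 1.58, 0 and 12.0, where the value of replicate 1 rests on 8 counts.

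*Ascl2*, *Smoc2*, *Sox9* and *Ephb2* together had 0, 952, 3 and 859 counts in replicates 1 to 4. Replicate 1, which held none of them, had 2999 pan-epithelial counts. Replicate 3, with 3 counts on them, had 332. These genes were grouped after their values were seen, because each had 0 counts in replicate 1, so nothing follows from their sum there. *Lgr5*, which is not among them, had 8 counts in replicate 1.

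**Figure D3:**
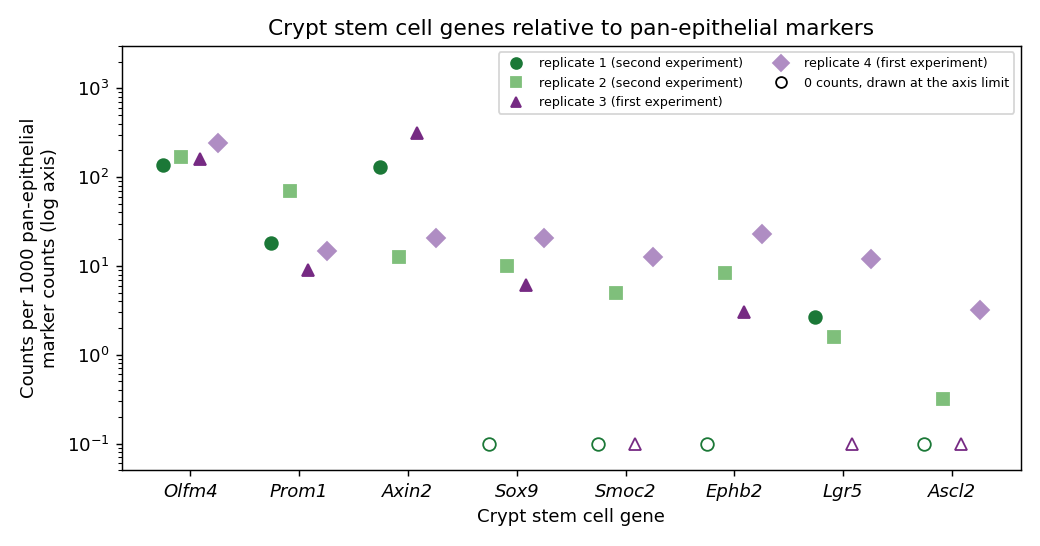
Counts of each of the 8 genes per 1000 counts on the 15 pan-epithelial markers (y axis, log scale) in each library. Open symbols are libraries with 0 counts, drawn near the lower limit of the axis. *Olfm4* lies between 137 and 241 in the 4 libraries, and *Axin2* between 12.5 and 316.

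Counts of at most 3 in replicates 1 and 3 and at least 100 in replicates 2 and 4 were found for *Smoc2*, *Sox9* and *Ephb2*. Over all 11689 genes, 0.548% had this pattern, and of the 15 pan-epithelial markers 1 had it, *Cdx2*, an intestinal transcription factor with 3, 100, 0 and 215 counts. These limits were chosen after the values were seen. A limit of 50 counts in replicates 2 and 4 gave the same 3 of the 8 genes, and had to. Each had at least 183 counts there. *Ascl2*, the other gene with at most 3 counts in replicates 1 and 3, had only 13 and 46.

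Other genes of the crypt stem cell signature were described by their counts. Of 14 in the table, 13 passed the filter and 8 of these were higher by over 1 unit in both pairs (19.0% of all genes were). Their medians were 4.42 and 2.34, and 0 were called between experiments. Among them *Fstl1*, *Gkn3*, *Mex3a* and *Tnfrsf19* met the filter only through replicates 2 and 4 and had to be higher there. Such genes are also in the WNT, NOTCH, paralog and marker lists below, so all these counts are descriptions. Of the 3 with the highest mean TPM, *Slc12a2*, a sodium, potassium and chloride cotransporter, had 237, 4474, 45 and 1056 counts in replicates 1 to 4, lowest in replicate 3 as *Olfm4* was. *Zbtb38*, a zinc finger protein, had 879, 890, 690 and 430 counts, and its 155 CPM in replicate 3 were its highest level. *Soat1*, which esterifies cholesterol, had 742, 397, 282 and 344 counts. Of the genes linked to reserve stem cells, 4 of 5 passed the filter and 1, *Lrig1*, a regulator of ERBB receptors, was higher in both pairs, with 26, 597, 71 and 254 counts. *Bmi1*, a Polycomb group gene, was lower in both (8.21% of all genes were), with 366, 92, 251 and 102 counts. *Hopx* had 525, 488, 562 and 275.

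WNT pathway genes were considered by role, and their counts are read against the 19.0% of all genes that were higher and the 8.21% that were lower in both pairs. Of 16 receptors and receptor regulators, 10 passed the filter, 4 were higher in both pairs and 2, *Lgr6* and *Fzd10*, had 0 counts in all libraries. The WNT receptors *Fzd5* (1726, 1611, 647 and 1053 counts) and *Lrp6* (1385, 1379, 419 and 707 counts) were present in every library, as was *Znrf3*, which removes such receptors (295, 1321, 320 and 380 counts). Of 11 ligands, 3 passed the filter, and *Wnt6*, *Wnt9b*, *Wnt11*, *Rspo2*, *Rspo3* and *Rspo4* had 0 counts in all libraries. The highest ligands were *Wnt2b*, with 116, 220, 32 and 86 counts, *Rspo1*, with 21, 0, 0 and 119, and *Wnt3*, with 0, 11, 0 and 32. None of the 7 genes of the β-catenin destruction complex was higher in both pairs. Its most abundant genes were *Ctnnb1*, which encodes β-catenin itself, and the kinase genes *Csnk1a1* and *Gsk3a*, at mean TPM of 259, 178 and 117.

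The factors that carry the WNT signal to DNA differed among themselves. Of 9 TCF, LEF and cofactor genes, 3 were higher and 1 lower in both pairs. *Tcf7* and *Lef1*, which T cells are known to use, had 407, 170, 841 and 550 and 797, 421, 892 and 251 counts, and the cofactor *Tle3* 751, 823, 917 and 489. By contrast *Tcf7l2*, the main such factor of the intestinal epithelium, had 1, 1838, 4 and 120 counts, highest in replicate 2 as *Prom1* was, and it was named after its values were seen. Of 16 other WNT targets, 10 passed the filter, and 3 were higher and 2 lower in both pairs, against 19.0% and 8.21% of all genes. Few genes make up either count. *Tcf7* and *Lef1* belong to this list too, and *Lef1* is among the lower genes of both lists. Of the 16, *Notum*, *Wif1* and *Dkk1* had 0 counts in all libraries. The most abundant was *Cd44*, a receptor of T cells as well as crypt cells, with 7140, 3791, 3970 and 1426 counts and 991, 362, 889 and 356 CPM. *Cd44* thus ran opposite to *Ephb2*, which is also a WNT target. Of 11 NOTCH pathway genes, 9 passed the filter, and 4 were higher and 2 lower in both pairs, against 19.0% and 8.21% of all genes. The NOTCH target *Hes1* had 18, 241, 7 and 135 counts, while *Rbpj* had 1140, 598, 628 and 343 and the receptor *Notch2* 1070, 539, 680 and 198.

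Paralogs show which member of a family the libraries held. Of 21 in the table, 8 passed the filter, 5 were higher and 1 lower in both pairs, against 19.0% and 8.21% of all genes, and *Lgr6*, *Olfm3*, *Ascl4*, *Ascl5*, *Sox10* and *Ephb1* had 0 counts in all libraries. *Lgr4*, the other R-spondin receptor found here, had 236, 946, 0 and 287 counts and a mean TPM of 27.4 against 6.88 for *Lgr5*. *Ephb4* had 2, 470, 15 and 258 counts and a mean TPM of 17.6 against 6.95 for *Ephb2*. Their mean CPM was 28.3 and 28.6, so this gap comes from their exon lengths of 4361 and 10927 bases. *Axin1*, which is not known as a WNT target, had 113, 200, 169 and 95 counts and a mean TPM of 17.1 against 32.4 for *Axin2*. Of the ephrin-B ligands that bind EPHB2, *Efnb1* had 201, 227, 390 and 568 counts, *Efnb2* 9, 846, 1 and 144 and *Efnb3* 0, 0, 28 and 0.

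Markers of mature crypt and villus cells are given against the same 19.0% of all genes that were higher in both pairs. Of the Paneth markers, 4 of 8 were higher in both pairs, and their share was 0.0346%, 0.0638%, 0.00139% and 3.11%. Their most abundant gene, *Lyz1*, an antimicrobial lysozyme, had 2171, 3534, 47 and 84299 counts. It stood at 338 CPM in replicate 2 and 21072 CPM in replicate 4, while *Sox9* stood at 38.6 and 75.0 CPM. Next in mean TPM were *Itln1* and *Defa22*. Goblet cell markers were higher in both pairs in 6 of 7 genes, with shares of 0.0404%, 1.13%, 0.0103% and 0.574%, the highest in replicate 2 as for *Prom1*, and were led by *Agr2*, *Tff3* and *Zg16*. Of the enterocyte markers 3 of 9 were higher in both pairs, with shares of 0.0305%, 0.128%, 0.0210% and 0.328%, led by *Fabp2*, *Apoa1* and *Anpep*. Of the proliferation genes 6 of 10 were higher in both pairs, with shares of 0.0281%, 0.0903%, 0.0250% and 0.0800%, led by *Pcna*, *Mki67* and *Rrm2*. Fibroblasts can also carry *Smoc2*, and their markers, led by *Dcn*, *Col3a1* and *Col1a2*, took 0.00803%, 0.000939%, 0.000237% and 0.0185%, beside *Smoc2* at 0, 19.3, 0 and 45.7 CPM. Both were highest in replicate 4, and in replicates 1 and 2 their orders differed. Whether any of these cells contributed to the levels of the 8 genes was not tested.

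**Figure D4:**
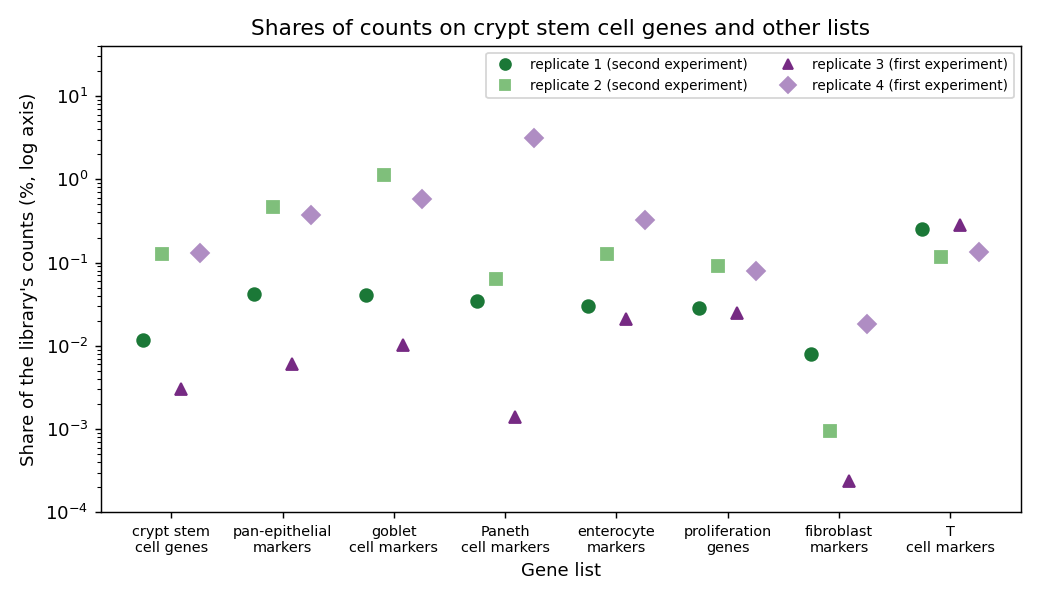
Share of each library's counts (y axis, percent, log scale) on the 8 crypt stem cell genes and on 7 lists of marker genes (x axis). The crypt genes lie at 0.128% and 0.129% in replicates 2 and 4 and at 0.0119% and 0.00299% in replicates 1 and 3, and the T cell markers at 0.118% to 0.284%.

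The average pattern of the 8 genes was compared with every gene that passed the filter. This average is not shared by *Axin2*, and 5 of the genes that set it passed the filter only through replicates 2 and 4. On log2 CPM centred on each gene's own mean, their average was -2.09, 2.00, -2.90 and 2.99 in replicates 1 to 4. *Olfm4* lay nearest to this average of the 8, with a mean absolute difference of 0.50 log2 units over the 4 libraries, and *Axin2* farthest, at 2.12. The median over all genes was 2.47, over the pan-epithelial markers 0.83, over the goblet cell markers 0.93 and over the T cell markers 3.21. Among the 10 genes nearest to the average were *Fgfbp1*, *Car4*, *Dsg2*, *Tcea3*, *Arhgap29*, *Tpd52l1*, *Cttnbp2*, *Ppp1r14d* and *Plce1*, at 0.13 to 0.26 log2 units. Of these *Dsg2*, a desmosomal cadherin, had 31, 1064, 10 and 564 counts and *Fgfbp1*, which binds fibroblast growth factors, had 3, 128, 1 and 108. With 4 libraries, many genes lie near any profile, and profiles of genes with 0 counts depend on the prior count.

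Single genes among the 8 had other neighbours, named as the nearest by the same measure after their values were seen. *Ephb2* lay nearest to *Parva*, an actin-binding adhesion protein with 0, 335, 1 and 355 counts, at 0.04 log2 units, and at 0.23 from *Sox9*, which came after *Parva* and *Adcy9* in its order. *Olfm4* lay nearest to *Tjp1*, a tight junction protein with 52, 1043, 7 and 524 counts, at 0.08. *Smoc2* lay nearest to *Kcnq1*, a potassium channel with 0, 223, 0 and 170 counts, at 0.07, and *Lgr5* to *Fnip2*, with 13, 92, 0 and 287 counts, at 0.23. *Axin2* lay nearest to *Mbd4*, a DNA glycosylase with 66, 83, 17 and 46 counts, at 0.04, and to *Uba3*, part of the enzyme that activates NEDD8, with 445, 519, 116 and 304 counts, at 0.07.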

How the data were processed

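Per the paper's methods and the table's header, the authors aligned paired reads with HISAT2, counted primary alignments on RefSeq exons with featureCounts 1.6.4 without regard to strand, and deposited raw counts per gene. The submitters' processing notes in the labels also name Bowtie2 and RSEM, with no role given. The methods name GRCm39, but the deposited positions are those of GRCm38, which are used here. The deposited exon lengths, another column that is no measurement, served for TPM. No exon base of the 8 genes overlaps another gene of the table. The table holds 6 library columns, of which 4 match a label, and the other 2 were not used. Genes that reached 10 counts in 2 libraries or more entered edgeR's quasi-likelihood test. Its check on simulated data set limits only at a smaller spread than these libraries have. A simulation at a spread near theirs was also run, without such a limit, and its calls are not reported here. No statement is therefore made on how the test performs at their spread. Intervals of shares are 95% Wilson intervals and those of ratios exact binomial intervals, and both, like the 3-count limit, cover counting error only, since reads without molecular identifiers are not independent molecules. Neighbour genes were ranked by mean absolute difference of centred log2 CPM. From each list the text names the 3 genes of highest mean TPM and those at 0 in all libraries, and paralogs with more TPM than their family member. A few genes that these rules select are not reported here. *Tcf7l2* and *Cdx2* were named after their values were seen. The 8 genes and the lists were chosen with earlier results of these data known. Alternatives were other size factors, filters and prior counts, DESeq2, and leaving out each replicate. Tools were R 4.3.3, edgeR 4.0.16, DESeq2 1.42.0, matplotlib 3.10.9, scipy 1.17.1, pandas 2.3.3, numpy 2.4.6 and Python 3.11.15.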

Additional observations from a re-analysis of the deposited data

Results flagged for a closer look

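Of 18 quantities examined over the 4 libraries, 4 had 1 library whose gap to the nearest other library exceeded, as a part of the whole range, the 95% critical value of Dixon for 4 values, where chance gives about 0.9 such cases (1 in 20). *Lgr5* stood at 43.2 CPM in replicate 4, with a gap of 0.859 of the range, and *Ascl2* at 11.5 CPM in the same library, with a gap of 0.892. Relative to epithelial RNA, *Ascl2* again stood apart in replicate 4, at 3.19 counts per 1000 pan-epithelial counts (gap 0.899). Both *Ascl2* cases rest on the same 46 counts. *Prom1* stood apart in replicate 2, at 70.3 counts per 1000 pan-epithelial counts (gap 0.848). The 2 genes that stood apart in replicate 4 had 173 and 46 counts there. Replicate 4 also held the largest Paneth marker share, 3.11%, and replicate 2 the largest goblet marker share, 1.13%, and the part of either in these values was not tested.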

How the results depend on the processing

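The number of the 8 genes called between experiments was 0 in the main test and in each alternative that kept all 4 libraries. With 10 counts asked of all 4 libraries, only 2 of the 8 were tested. Without a filter on low counts, *Prom1* had an unadjusted p of 0.00351 in the edgeR test (adjusted p 0.449). Leaving out replicate 2 or replicate 4 left only 3 of the 8 to test. Over all genes, 0 were called in the main test (248 at an unadjusted p under 0.05), 60 without a filter on low counts, 41 with DESeq2, and 0 to 7 when a replicate was left out (7 without replicate 3, 6 without replicate 4). The count of 8 genes past the filter fell to 2 when 10 counts, or more than 3 counts, were asked of all 4 libraries. The 8 genes per 1000 pan-epithelial counts went from 351 to 175 without *Olfm4*, to 3022 with *Epcam* alone as the epithelial count, and to 55.2 without *Olfm4* and *Axin2*, the last added after seeing the data. The 7 genes higher in both pairs stayed 7 under each alternative scaling or limit except that to the T cell markers, which gave 8. All 48 alternative mean CPM values lay within 1 SD of the main value. For the means that leave out 1 of 4 libraries this had to be so, since such a mean cannot move further. That SD also exceeds the mean in 7 of the 8 genes. Without replicate 4 the mean fell by over 1.5 times for *Lgr5* (2.41), *Olfm4* (240.0), *Ascl2* (0.414), *Smoc2* (6.43), *Sox9* (13.0) and *Ephb2* (10.7). Without replicate 2 it did so for *Prom1* (20.5). No paired analysis was possible because the 2 experiments share no replicate numbers and the libraries are of 1 condition. Depth limits *Ascl2* most, with at most 46 counts in a library.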

Other observations

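Enteroendocrine markers took 0.00382%, 0.0291%, 0% and 0.0118% of all counts in replicates 1 to 4, led by *Chgb* and *Gcg*. *Neurog3*, which directs crypt progenitors to the enteroendocrine fate, had 16, 478, 0 and 1 counts, so that replicate 2 held nearly all of it while replicate 4 held more *Lgr5*. The plasma and B cell markers took 0.656%, 0.837%, 0.0112% and 0.0381%, led by *Jchain* with 44022, 66662, 11 and 780 counts and followed by *Xbp1* and *Mzb1*. Myeloid markers, led by *Lyz2*, *Cd68* and *Itgam*, took 0.00668%, 0.00895%, 0.00213% and 0.0156%. Endothelial and glial markers, led by *Pecam1* and *Cdh5* with *Kdr*, *S100b* and *Sox10* at 0, took at most 0.00588%. Tuft cell markers, led by *Avil*, *Trpm5* and *Dclk1* with *Il25* at 0, took at most 0.00144%, and the CD8 markers *Cd8a* and *Cd8b1* at most 0.000149%.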
